A study of Mus musculus with 9 samples.

Results

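The transcripts of 10 secreted signalling proteins were examined in cultured mouse macrophages at 3 oxygen conditions. They were the cytokines Tnf, Il6, Il10, Il12b, Tgfb1 and Osm and the growth factors Igf1, Csf1, Pdgfb and Hbegf. The genes were taken by symbol through their Ensembl identifiers, and all 10 were found among the 34866 genes of the deposited tables. The study sequenced mRNA from primary macrophages, 3 libraries for each condition. The culture medium was alpha-MEM with fetal bovine serum. It was supplemented in every condition with L929-conditioned medium, which supplies CSF1 protein secreted by those fibroblasts. Standard oxygen cells spent 7 days in culture. Acute hypoxia cells were moved from standard culture to 1% oxygen for 3 h, and chronic hypoxia cells spent 7 days at 1% oxygen. The replicates are described as biological, but the sources used here do not say whether each came from its own mouse. The tissue of origin, strain, sex and age are likewise not given, and no stimulus other than low oxygen is named.

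Macrophages send these proteins to neighbouring cells. TNF, IL-6 and IL-12 are made after microbial sensing and drive inflammation, IL-10 and TGF-beta 1 restrain it, and oncostatin M acts on stromal cells through the shared subunit gp130. IGF1, CSF1, PDGF-B and HB-EGF support the growth and survival of other cells, and CSF1 maintains the macrophages themselves. Many of these mRNAs are short-lived, and several ligands are made as precursors that are cut from the cell surface or kept latent in the matrix before they act.

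The study's labels carry a sample code that 1 library of each condition shares. They are written X, Y and Z here, and their meaning is not given in the sources used here. All 3 code Z libraries stood apart from the other 6 on the first principal component (36.9% of the variance of 11065 genes), while the second (25.4%) set chronic hypoxia apart. Results are therefore given without a block, with the code as a block, and without code Z. All 8 macrophage markers were expressed, with sums of 56607 to 74792 TPM in a library, of which Lyz2 alone held 52793 to 70403 TPM. Cd68, Cd14, Itgam, Csf1r and Adgre1 each exceeded 250 TPM in every library. Mertk, a receptor for dying cells, was 2.21 to 3.37 TPM in code Z and 21.8 to 33.3 TPM in X and Y. Cd14 was lower in chronic than in acute hypoxia without a block (log2 fold change -0.88, limma, adjusted p = 0.0486). The macrophage markers did not move alike in that comparison. With the code as a block Cd14 and Fcgr1 (-0.42) were lower, and Itgam (0.47) and Csf1r (0.56) were higher, where 15.5% of all genes passed. Of 9 measured hypoxia markers, 8 rose in chronic hypoxia against standard oxygen without a block, and 1 rose in acute hypoxia (7 with the code block). In these 3 fits 2.69%, 0.0273% and 0.71% of all genes passed (limma, adjusted p under 0.05). Each marker list of fibroblasts, T, B, dendritic, mast and NK cells, taken alone, summed to at most 2.15 TPM in any library. The neutrophil list summed to 899 to 1595 TPM at standard oxygen, 941 to 1908 TPM after acute hypoxia and 260.2 to 585 TPM after chronic hypoxia. Nearly all of that was S100a8. Of the other 7 genes, Ngp averaged 2.56, 2.44 and 0.110 TPM and Camp 0.832, 0.709 and 1.82 TPM in the 3 conditions, and Ly6g, S100a9, Elane, Mpo and Cxcr2 stayed below 1 TPM in every library. Like S100a8, Ngp was lowest in chronic hypoxia, and Camp was highest there. The part of these marker differences in the results below was not tested. All values are TPM (length-corrected transcript abundance, a share of each library's transcripts), so a level can be compared between genes, but the depth behind it is unknown.

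The 250 bases upstream of the RefSeq start site (GRCm38.p6) show what regulatory letters the abundant and the near-silent genes carry. A window was matched for 6 of the 10 genes, not for Il10, Osm, Pdgfb or Hbegf. Those of the abundant Tnf and Tgfb1, of Csf1, and of the near-silent Il6 are printed 5′ to 3′ on the gene's strand. Each window ends at the base before the start site. Capitals mark motif matches on either strand.
Tnf: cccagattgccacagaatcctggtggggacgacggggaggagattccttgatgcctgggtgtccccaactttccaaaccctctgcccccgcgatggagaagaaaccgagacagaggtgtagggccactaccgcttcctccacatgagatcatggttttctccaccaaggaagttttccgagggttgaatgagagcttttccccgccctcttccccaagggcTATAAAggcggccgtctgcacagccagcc
Tgfb1: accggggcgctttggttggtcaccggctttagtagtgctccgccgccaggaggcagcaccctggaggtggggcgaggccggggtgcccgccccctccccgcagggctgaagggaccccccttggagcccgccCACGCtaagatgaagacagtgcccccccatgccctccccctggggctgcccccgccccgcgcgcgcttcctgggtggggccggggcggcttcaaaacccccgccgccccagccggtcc
Csf1: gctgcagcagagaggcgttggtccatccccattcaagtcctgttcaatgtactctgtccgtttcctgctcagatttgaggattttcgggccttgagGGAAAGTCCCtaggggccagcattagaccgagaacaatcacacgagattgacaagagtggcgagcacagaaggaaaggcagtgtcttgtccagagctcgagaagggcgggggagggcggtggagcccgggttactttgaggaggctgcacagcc
Il6: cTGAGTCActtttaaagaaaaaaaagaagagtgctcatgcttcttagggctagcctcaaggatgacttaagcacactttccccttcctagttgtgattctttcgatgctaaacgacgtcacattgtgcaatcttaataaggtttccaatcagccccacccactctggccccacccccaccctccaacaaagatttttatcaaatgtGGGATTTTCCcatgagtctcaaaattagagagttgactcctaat
These windows lie at chr17:35202008-35202257 (minus strand), chr7:25686752-25687001 (plus), chr3:107760470-107760719 (minus) and chr5:30012864-30013113 (plus). None of the 4 overlaps an annotated exon of any gene. Their GC content was 57.6% for Tnf, 75.2% for Tgfb1, 56.4% for Csf1 and 42.8% for Il6. Tnf has a TATA box, TATAAA, that begins 29 bases before its start, a motif found in 12.4% of 32841 windows of this length. Tgfb1 holds the hypoxia response core GCGTG, read on the opposite strand as CACGC and beginning at base -118. GCGTG occurs in 28.2% of windows, ACGTG in 16.6% and either core in 38.6%. The windows of Tnf, Csf1, Il6 and Il12b had neither core, and the Igf1 window, not printed because it overlaps annotated Igf1 exons, had GCGTG. An NF-kappaB consensus site (3.90% of windows) was found in Csf1 at base -154, on the opposite strand, and in Il6 at base -44. Il6 also has the AP-1 motif TGANTCA (6.75% of windows) at base -249, as does that Igf1 window at base -37. Each motif was searched on both strands. CACGTG would count as ACGTG on both, and no other printed matches overlap. A match describes letters in this window and does not show that a factor binds.

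Levels spanned a wide range and kept 1 order of group means in every condition. Igf1 was highest, followed by Tgfb1, Tnf, Pdgfb, Osm, Csf1, Il10 and Hbegf, with Il6 and Il12b last. Averaged over 9 libraries, Igf1 reached 541 TPM, above 97.7% of the 11065 genes with a mean of at least 1 TPM. Tgfb1 (317 TPM) stood above 96.3% of them and Tnf (117 TPM) above 90.8%. Pdgfb, at 25.8 TPM, stood above 63.4%. Osm (4.77 TPM), Csf1 (2.42 TPM) and Il10 (1.63 TPM) belonged to the lowest expressed genes, above 19.1%, 9.42% and 4.72%. Neighbours in this order did not all differ beyond their spread. Igf1 and Tgfb1 overlapped in standard oxygen and chronic hypoxia, and in chronic code Z their order was reversed, with 171 TPM of Igf1 against 291 TPM of Tgfb1. Csf1 and Il10 overlapped in standard oxygen and acute hypoxia, and Hbegf and Il6 overlapped in standard oxygen and chronic hypoxia.

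**Figure D1:**
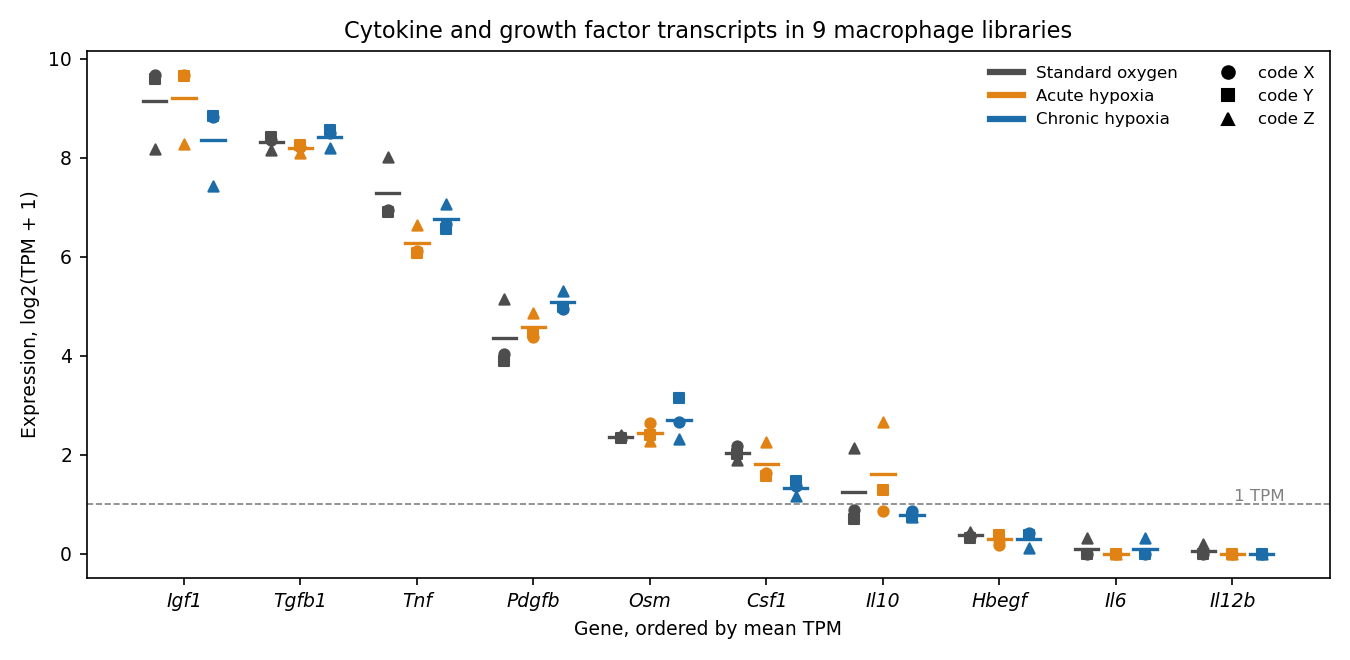
Expression of the 10 genes in each library, as log2(TPM + 1) on the vertical axis, with genes ordered along the horizontal axis by mean TPM; point shapes give the sample code, colours the oxygen condition, short bars the mean of 3 libraries, and the dashed line 1 TPM. Hbegf, Il6 and Il12b lie below the line in all 9 libraries, and Igf1, Tnf and Pdgfb show code Z (triangles) apart from codes X and Y.

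Of the 10 genes, 3 were below 1 TPM in every library, and 6 were at or above 1 TPM in every library. Il6 (ENSMUSG00000025746, chr5:30013114-30019981) was listed at 0 in 7 libraries and at 0.251 TPM at standard oxygen and 0.253 TPM in chronic hypoxia, both code Z. Il12b (ENSMUSG00000004296, chr11:44400063-44414033), the subunit shared by IL-12 and IL-23, was listed at 0 in 8 libraries and at 0.149 TPM in the code Z library of standard oxygen. Hbegf (ENSMUSG00000024486), an EGF receptor ligand, lay between 0.0832 and 0.364 TPM. These 3 genes did not reach the mean of 1 TPM required for testing. No fold change is given for them, since the depth that would say what a listed 0 allows is unknown.

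Il10, an anti-inflammatory cytokine (ENSMUSG00000016529, chr1:131019845-131024974), crossed the 1 TPM line. In the order of codes X, Y and Z it measured 0.840, 0.621 and 3.43 TPM at standard oxygen, 0.818, 1.45 and 5.32 TPM in acute hypoxia, and 0.826, 0.665 and 0.673 TPM in chronic hypoxia. The high values were those of code Z in standard oxygen and acute hypoxia, the chronic code Z library was not raised, and 6 of 9 libraries were below 1 TPM. The log2 difference was 0.36 for acute hypoxia against standard oxygen (95% interval -1.02 to 1.75) and -0.46 for chronic hypoxia against standard oxygen (-1.44 to 0.53). For chronic against acute hypoxia it was -0.82 (-1.94 to 0.29). No setting placed Il10 past the threshold, and without code Z its mean fell below the minimum for testing.

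Igf1, which signals through the receptor tyrosine kinase IGF1R (ENSMUSG00000020053, chr10:87858265-87937042, plus strand), was lower in chronic hypoxia than in both other conditions within every code. In the order X, Y, Z it measured 809, 773 and 288 TPM at standard oxygen, 816, 796 and 310.1 TPM in acute hypoxia, and 448, 460.0 and 171 TPM in chronic hypoxia. Codes X and Y lay close together in every condition, code Z was lower in each, and no code departed from the chronic decrease. As groups, the conditions overlapped. The ratio of chronic to standard TPM was 0.554 for X, 0.595 for Y and 0.594 for Z. The ratio of acute to standard TPM was 1.01, 1.03 and 1.08. Code Z held 0.364, 0.385 and 0.377 times the mean of X and Y in standard oxygen, acute and chronic hypoxia, so this gap was about as wide in each condition.

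Whether the Igf1 difference passed depended on how that gap was handled. Without a block its log2 fold change (log2(TPM + 1) scale) for chronic hypoxia against standard oxygen was -0.78 (SE 0.531, limma, adjusted p = 0.428). With the code as a block the SE was 0.0642 and the adjusted p was 0.00843, and without code Z the change was -0.80 (adjusted p = 0.00309). Over 19 alternatives the adjusted p ran from 0.000461 to 0.730. Against acute hypoxia the change was -0.84, and the adjusted p fell from 0.404 to 0.00748 once the code entered as a block, and to 0.00476 without code Z (0.000680 to 0.692 over 19 alternatives). Acute hypoxia differed from standard oxygen by 0.05 with a 95% interval of -0.08 to 0.18 under the code block (adjusted p = 0.684). In bulk RNA, fewer cells with a transcript and less of it per cell cannot be told apart.

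Csf1, the ligand of the macrophage survival receptor CSF1R (ENSMUSG00000014599, chr3:107741048-107760469, minus strand), was a low transcript in all groups. In the order X, Y, Z it measured 3.51, 3.07 and 2.73 TPM at standard oxygen, 2.10, 1.97 and 3.79 TPM in acute hypoxia, and 1.58, 1.78 and 1.24 TPM in chronic hypoxia. The chronic libraries were the 3 lowest of the 9 and overlapped neither other group, while acute code Z was the highest. The ratio of group means was 0.493 for chronic hypoxia against standard oxygen. The log2 fold change of -0.70 missed the threshold without a block (SE 0.188, limma, adjusted p = 0.104). It passed with the code block (adjusted p = 0.0445) and without code Z (0.0496), both near the threshold, within a range of 0.0410 to 0.324 over 18 alternatives. Acute hypoxia against standard oxygen gave -0.21 (95% interval -0.77 to 0.34), with codes X and Y lower and code Z higher.

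Pdgfb, the B chain of platelet-derived growth factor (ENSMUSG00000000489, chr15:79995874-80014977, minus strand), was highest in chronic hypoxia within every code. It measured 15.5, 13.8 and 34.3 TPM at standard oxygen for X, Y and Z. The values were 19.9, 21.0 and 28.2 TPM in acute hypoxia and 29.9, 30.9 and 38.8 TPM in chronic hypoxia. Chronic libraries did not overlap acute ones, but the code Z library of standard oxygen lay among the chronic values. Chronic TPM was 1.94, 2.23 and 1.13 times the standard value for X, Y and Z, and 1.50, 1.47 and 1.38 times the acute value. The log2 fold change of chronic against acute hypoxia was 0.52 (limma, adjusted p = 0.169, or 0.0189 when the code was a block; 0.0188 to 0.405 over 19 alternatives). After rescaling it was 0.36 and no longer passed with the code block (limma, adjusted p = 0.0502). Against standard oxygen the change before rescaling was 0.73 (adjusted p = 0.250, or 0.0629 when the code was a block). That value rested on standard replicate 2, the code Z library. Without it the adjusted p was 0.0252, and without all of code Z the change was 1.01 (adjusted p = 0.00481; 0.00481 to 0.549 over 19 alternatives).

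Tnf, the inflammatory cytokine released from the membrane by ADAM17 (ENSMUSG00000024401, chr17:35199381-35202007, minus strand), was lowest in acute hypoxia within every code. In the order X, Y, Z it measured 122, 118 and 256 TPM at standard oxygen, 67.8, 66.8 and 98.2 TPM in acute hypoxia, and 100.3, 93.4 and 133 TPM in chronic hypoxia. Acute libraries lay below all standard ones, chronic libraries overlapped both groups, and code Z was highest in each condition. The ratio of acute to standard TPM was 0.558, 0.567 and 0.384, and that of chronic to standard TPM was 0.825, 0.792 and 0.520. For acute hypoxia against standard oxygen the log2 fold change was -1.004 (SE 0.325, limma, adjusted p = 0.542). With the code block the adjusted p was 0.0665, and without code Z the change was -0.82 with an adjusted p of 0.0105 (0.0105 to 1.00 over 19 alternatives). Chronic against acute hypoxia gave 0.49 (adjusted p = 0.234, or 0.0165 when the code was a block; 0.0164 to 0.509). Chronic hypoxia against standard oxygen gave -0.52, with adjusted p-values of 0.379 and 0.0732. Without code Z the change was -0.30 and the adjusted p 0.0460 (0.0302 to 0.613 over 19 alternatives).

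**Figure D2:**
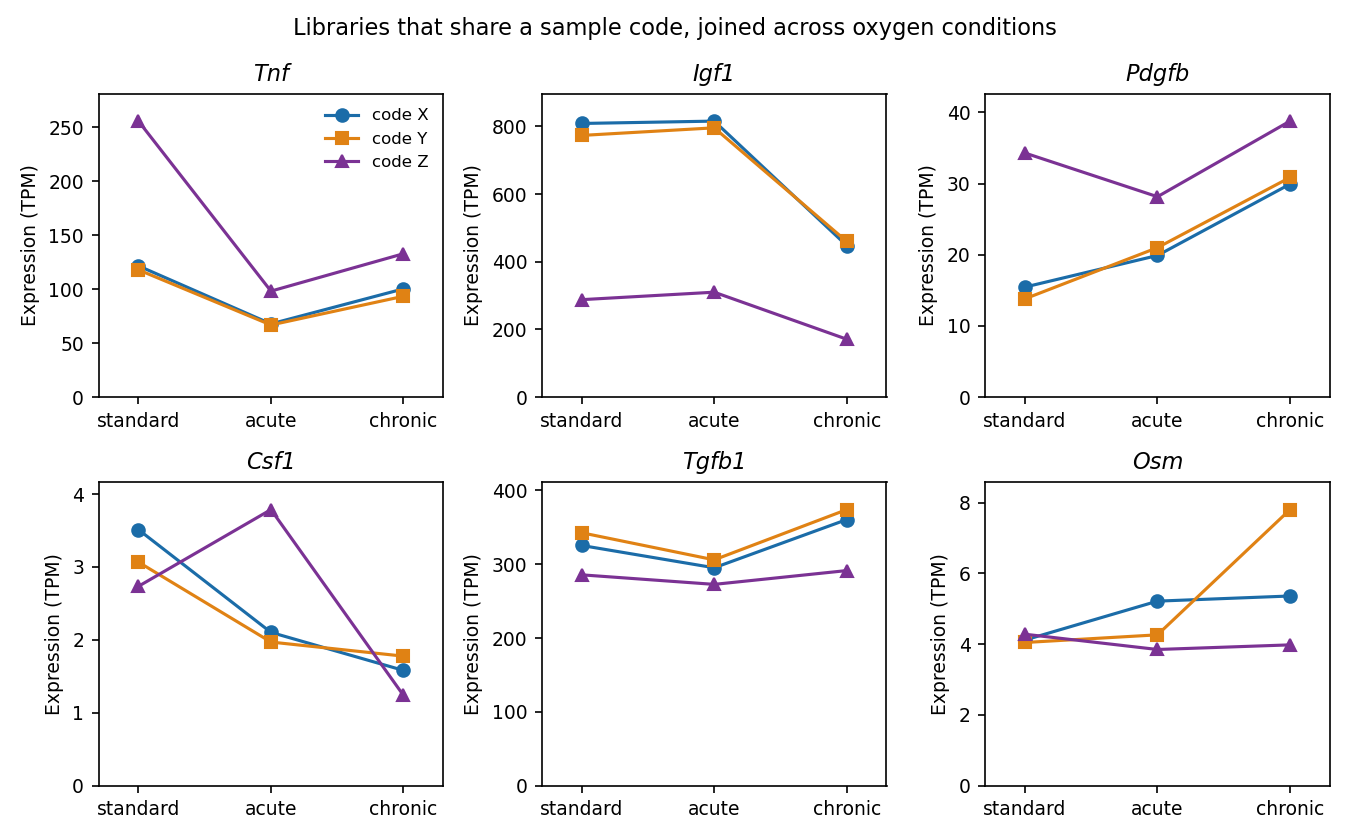
Expression in TPM (vertical axis, from 0) of 6 genes in the 3 oxygen conditions (horizontal axis), with a line joining the libraries of 1 sample code; each point is 1 library. Igf1 and Csf1 are lower in chronic hypoxia than in both other conditions, and Tnf is lowest in acute hypoxia, in each of the 3 codes. From standard oxygen to acute hypoxia Csf1, Pdgfb and Osm do not move alike in all codes, nor does Osm from standard oxygen to chronic hypoxia.

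Tgfb1, secreted in a latent form (ENSMUSG00000002603, chr7:25687002-25705077, plus strand), was abundant and varied little. In the order X, Y, Z it measured 325, 343 and 286 TPM at standard oxygen, 295, 306 and 273 TPM in acute hypoxia, and 361, 374 and 291 TPM in chronic hypoxia. Within each code the acute library was lowest and the chronic one highest, and all groups overlapped. The 95% interval of the log2 difference without a block was -0.37 to 0.12 for acute hypoxia against standard oxygen and -0.22 to 0.42 for chronic hypoxia against standard oxygen. Chronic against acute hypoxia gave 0.22 (limma, adjusted p = 0.362, or 0.0973 when the code was a block). Without code Z it was 0.29, with an adjusted p of 0.0487 (0.0422 to 0.878 over 19 alternatives). Rescaling of the libraries reversed the difference of chronic hypoxia against standard oxygen from 0.10 to -0.08. It also lowered that of chronic against acute hypoxia from 0.22 to 0.07 (limma, adjusted p = 0.588 with the code block).

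Osm, the gene of oncostatin M (ENSMUSG00000058755, chr11:4236420-4241026, plus strand), was steady in standard oxygen. It measured 4.12, 4.05 and 4.28 TPM at standard oxygen for X, Y and Z. The values were 5.21, 4.26 and 3.85 TPM in acute hypoxia and 5.36, 7.80 and 3.98 TPM in chronic hypoxia. The highest value was that of chronic code Y, and both hypoxic code Z libraries lay below every standard one. The log2 difference of chronic hypoxia against standard oxygen was 0.34 with a 95% interval of -0.19 to 0.88, and no setting placed Osm past the threshold in any comparison.

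Over the 7 genes tested, none passed without a block in any of the 3 comparisons (limma, adjusted p under 0.05). At an unadjusted p under 0.05 the counts were 1 (Tnf) for acute hypoxia against standard oxygen, 1 (Csf1) for chronic hypoxia against standard oxygen, and 2 (Tnf and Pdgfb) for chronic against acute hypoxia. Over all genes 785 of 10987, 2533 of 11067 and 2305 of 11087 lay under that unadjusted threshold. All shares that follow are for the adjusted p. For acute hypoxia against standard oxygen 0.0273% of all 10987 genes passed, and with the code block 0.71% of all genes and 0 of the 7 did. For chronic hypoxia against standard oxygen 2.69% of 11067 genes passed unblocked. Blocking on the code, 18.4% passed and 2 of the 7 did, Igf1 and Csf1, both lower (3.3% of all genes were called lower). Rescaling turned the split over all genes under this block from 1674 higher and 365 lower to 619 higher and 652 lower of 11040. For chronic against acute hypoxia 0.695% of 11087 genes passed unblocked. Blocking on the code, 15.5% passed and 3 of the 7 did, Tnf and Pdgfb higher and Igf1 lower (12.1% and 3.42% of all genes). Rescaling turned that split from 1345 higher and 379 lower to 506 higher and 555 lower of 11039. There Pdgfb no longer passed (limma, adjusted p = 0.0502), and Tnf and Igf1 did. Without code Z the counts were 1, 4 and 4 of 6 genes tested, where 2.95%, 21.1% and 16.3% of all genes passed. The comparisons share samples, so their counts are not independent.

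Overlap of the groups was counted as well. Between acute hypoxia and standard oxygen, 1 of 7 did not overlap (Tnf; 12.5% of all genes), between chronic hypoxia and standard oxygen 1 (Csf1; 29.6%), and between chronic and acute hypoxia 2 (Csf1 and Pdgfb; 27.8%). All 3 code pairs had the same direction for 3, 5 and 6 of the 7 genes, against 37.8%, 59.5% and 56.4% of all genes. The median log2 fold change of the 7 was 0.05, -0.46 and 0.22, and that of all genes 0.01, 0.16 and 0.14. The last 2 values are a shift of all genes that rescaling by the median of ratios removes. On rescaled values chronic hypoxia against standard oxygen gave -0.96 for Igf1, -0.81 for Csf1, -0.69 for Tnf and 0.56 for Pdgfb. There Igf1 and Csf1 passed with the code block, and Tnf passed too (adjusted p = 0.0486).

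**Figure D3:**
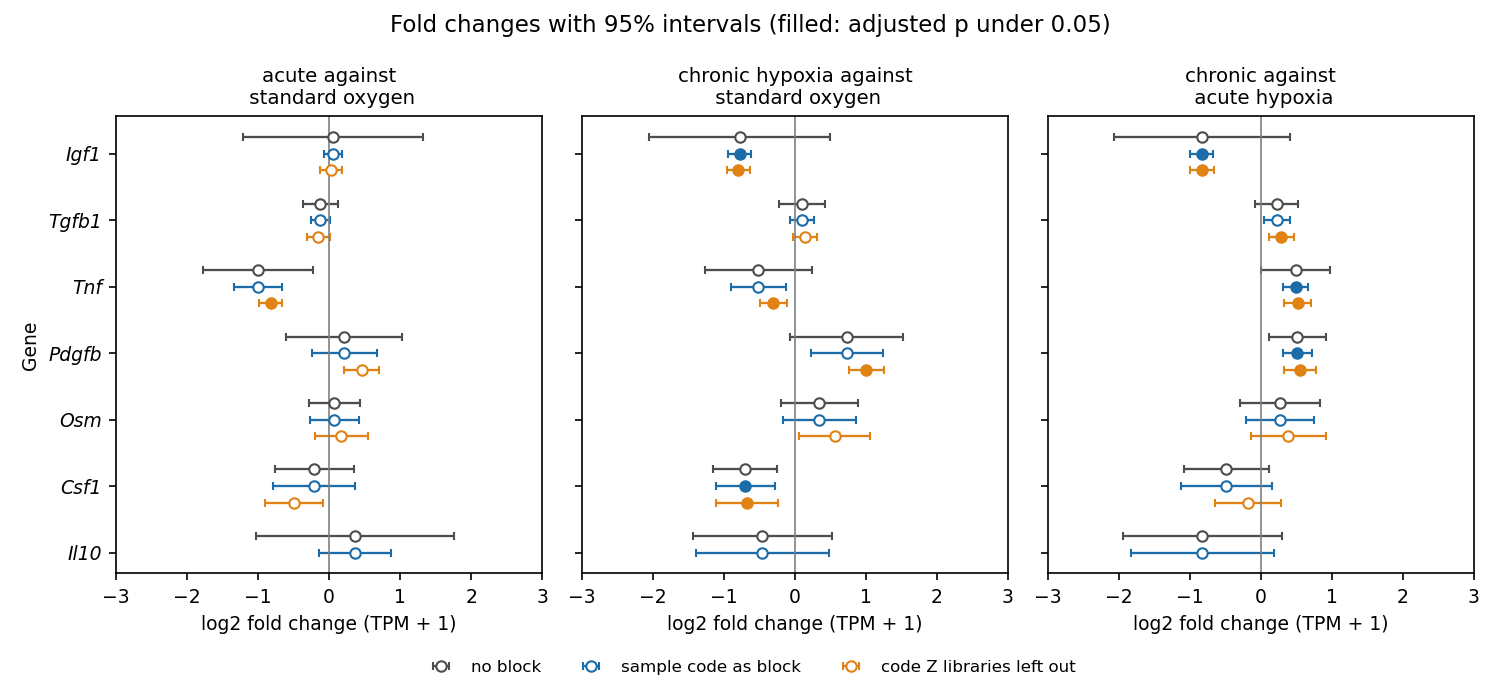
Log2 fold changes of the 7 tested genes (log2(TPM + 1) scale, horizontal axis) in the 3 comparisons, with 95% intervals, without a block, with the sample code as a block and without the code Z libraries; filled points have an adjusted p under 0.05. The Igf1 interval for chronic hypoxia against standard oxygen narrows from -2.05 to 0.49 without a block to -0.95 to -0.62 with the code block, around the same estimate of -0.78.

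Receptors differed widely in whether these cells held their transcripts. Of 20 receptor genes, 11 were tested, and 8 were below 1 TPM in all 9 libraries. The oncostatin M receptor subunits Osmr and Lifr, the PDGF receptors Pdgfra and Pdgfrb, and the EGF-family receptors Egfr and Erbb4 reached at most 0.150 TPM in any library. Tnfrsf1b (556 TPM over all libraries), Csf1r (546 TPM), Il10rb (172 TPM) and Tnfrsf1a (111 TPM) were the most abundant, and Igf1r averaged 2.91 TPM. In chronic hypoxia against standard oxygen, 2 of 11 rose without a block. Il10ra, the ligand-binding IL-10 receptor chain, measured 25.8 to 34.4 TPM at standard oxygen and 51.6 to 65.5 TPM in chronic hypoxia (log2 fold change 1.03, adjusted p = 0.0314). Il6ra, the IL-6 receptor alpha chain, rose by 0.90 (adjusted p = 0.0210). The groups did not overlap for either gene, which held for 29.6% of all genes in this comparison. With the code block Tgfbr3, a TGF-beta co-receptor, was also lower at -1.07 (adjusted p = 0.0165; 0.142 unblocked). Between chronic and acute hypoxia no receptor passed without a block. Blocking on the code, Il10ra (0.73) and Csf1r (0.56) were higher and Tnfrsf1b lower (-0.37). After rescaling under that block Il10ra and Tnfrsf1b passed there, and Csf1r did not. Against standard oxygen 4 of 11 passed on rescaled values with the block, 2 higher and 2 lower. Without code Z 4 of 11 passed against standard oxygen (3 higher) and 2 against acute hypoxia (2 higher). Tnfrsf1b was not among the latter (limma, adjusted p = 0.0541). The median over the 11 for chronic hypoxia against standard oxygen was 0.34, beside 0.16 for all genes.

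Genes that release, activate or bind these ligands formed a list of 22, and none passed without a block in any comparison. Of these, 10 to 12 were tested in each comparison, and 8 were below 1 TPM in all libraries, among them the IGF-binding proteins Igfbp2 and Igfbp3, listed at 0 throughout. Adam17, the protease that sheds TNF, averaged 72.9 ± 5.25 TPM at standard oxygen against 105.0 ± 16.4 TPM after chronic hypoxia (SD, n = 3). Its change of 0.51 (log2) passed with the code block (adjusted p = 0.0216; 0.108 without a block), the only 1 of 10 in that comparison. After rescaling it no longer passed (0.0573), and Rhbdf1, lower at -0.87 (0.0493), was the 1 called. Against acute hypoxia 4 of 12 passed with the code block. Rhbdf2, which brings ADAM17 to the cell surface, was the highest of them (0.54), and Itgav, an integrin subunit that can activate latent TGF-beta, was the lowest (-0.59). Without code Z 7 of 10 tested passed there, 5 higher and 2 lower, and 3 of 11 were higher against standard oxygen.

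Related ligands were mostly near silent. Of 21 genes, 15 were below 1 TPM in every library and 3 were tested: Ebi3, Pdgfa and Il34. Pdgfa, the A chain partner of Pdgfb, averaged 3.55 ± 1.05, 5.57 ± 2.50 and 6.42 ± 1.87 TPM at standard oxygen, acute and chronic hypoxia (SD, n = 3). None passed without a block, and with the code block Il34, a second ligand of CSF1R, was lower in chronic than in acute hypoxia (-1.02, adjusted p = 0.0456; 0.403 without a block). That call was lost after rescaling (0.0505), and without code Z Il34 did not reach the minimum for testing. In each condition Il34 was highest in code Z, at 4.09, 6.88 and 2.63 TPM.

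Among factors that bind and degrade or stabilise cytokine mRNAs, called genes lay on both sides of 0. In chronic hypoxia against standard oxygen, 1 of 12 tested passed unblocked. Zfp36l1, a decay factor of the tristetraprolin family, averaged 8.76 ± 3.69 TPM at standard oxygen, 10.9 ± 4.47 TPM after acute hypoxia and 45.0 ± 17.5 TPM after chronic hypoxia (SD, n = 3). For chronic hypoxia against standard oxygen this gave a log2 fold change of 2.22 (adjusted p = 0.0406), and it did not pass after rescaling without a block. With the code block 6 of 12 passed, 4 higher (Zfp36l1, Hnrnpd, Tia1 and Tial1) and 2 lower (Zfp36 and Zfp36l2). After rescaling under the same block 3 of 12 passed, Zfp36l1 higher and the same 2 lower, and without code Z 2 passed, Zfp36l1 higher and Zfp36 lower. Zfp36, the gene of tristetraprolin, which destabilises Tnf mRNA, gave -0.66 (adjusted p = 0.0165; 0.0555 without a block). Against acute hypoxia 5 of 13 passed with the code block, 4 higher and 1 lower. Zfp36l1 was the highest at 1.93 (limma, adjusted p = 0.0354, or 0.0687 without a block), and the RNase gene Zc3h12a was the lowest at -0.58. After rescaling 2 of 12 passed there, 1 higher and 1 lower, and Zfp36l1 did not (limma, adjusted p = 0.0551). Without code Z 4 of 12 passed, 3 higher and 1 lower.

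Of 27 signalling and feedback targets, 19 were tested and none passed unblocked. Blocking on the code, 3 were higher in chronic hypoxia against standard oxygen, led by Nfil3 (1.67, adjusted p = 0.0191; 0.0518 without a block), a transcription factor gene. Spry2, an inhibitor of receptor tyrosine kinase signalling, gave 0.86 and lost its call after rescaling (0.0538). After rescaling 5 passed, 2 higher and 3 lower, and without code Z 6 did, 4 higher and 2 lower. Against acute hypoxia 1 was higher (Spry2, 0.58) and 2 were lower, with Socs3, a feedback inhibitor of gp130 signalling, at -0.81. Rescaled values gave 0 higher and 3 lower there (Spry2, adjusted p = 0.0600), and without code Z 3 were higher and 3 lower. In acute hypoxia against standard oxygen no gene of these 5 lists passed without a block or with the code block. Without code Z 1 receptor (Il6ra, 0.62), 2 genes of the release list (Thbs1, 1.23, and Itgav, 0.56) and 1 signalling gene (Nfil3, 1.78) were higher. With the code block, these counts stand beside 18.4% and 15.5% of all genes for chronic hypoxia against standard oxygen and against acute hypoxia. With rescaling under that block the shares were 11.5% and 9.61%. Without a block they were 2.69% and 0.695%, and without code Z 21.1% and 16.3%. For acute hypoxia against standard oxygen they were 0.027% without a block, 0.71% with the code block and 2.95% without code Z.

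**Figure D4:**
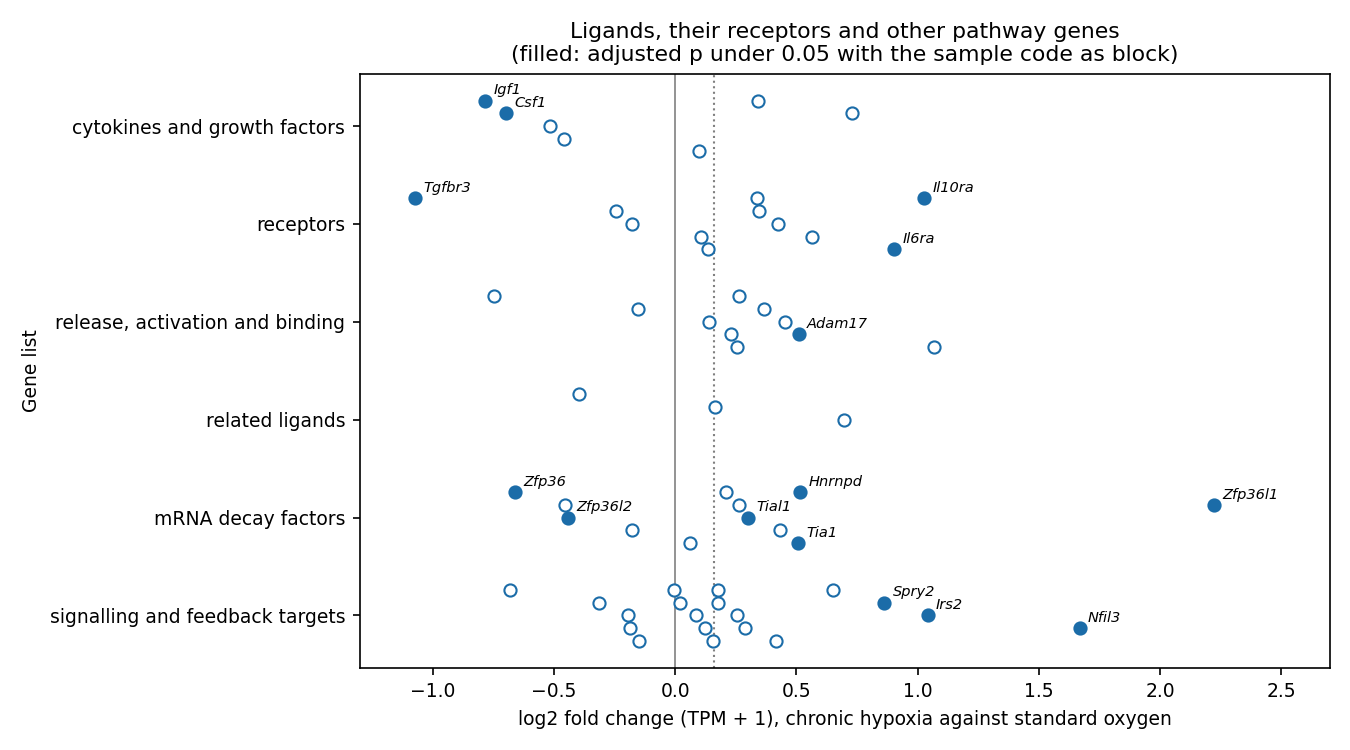
Log2 fold changes (log2(TPM + 1) scale, horizontal axis) of every tested gene of 6 lists (vertical axis) in chronic hypoxia against standard oxygen; filled, named points have an adjusted p under 0.05 with the sample code as a block, the solid line is 0 and the dotted line the median of all genes (0.16). Igf1 and Csf1 are the 2 filled ligands and both lie below 0, while Il10ra and Il6ra are the filled receptors above it.

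Genes whose pattern was most like each ligand were ranked by Pearson's r of log2(TPM + 1) over the 9 libraries, among genes averaging at least 10 TPM. The libraries share codes, and code Z stands apart, so r describes both code and oxygen. For Igf1 they were Cd36 (r = 0.997), Syn1 (0.990) and Slc41a3 (0.974). Cd36, a scavenger receptor gene, measured 4207, 4160 and 1644 TPM at standard oxygen for X, Y and Z, and 2762, 2534 and 1057 TPM in chronic hypoxia. As for Igf1, code Z and chronic hypoxia were low. For Tnf they were Ubqln1 (0.963), Sp140 (0.945) and Fgd4 (0.914). For Pdgfb they were Pik3cg (0.975), Zmynd8 (0.972) and Pilra (0.971). Pik3cg, a phosphoinositide kinase gene, was 44.1, 40.9 and 61.1 TPM at standard oxygen for X, Y and Z. Its chronic values of 60.9, 63.1 and 72.7 TPM were the highest of each code. For Csf1 they were Tpm1 (0.965), Spryd7 (0.963) and Zfp655 (0.960). For Tgfb1 they were Znrf2 (0.985), Setd3 (0.979) and 0610012G03Rik (0.979). For Osm they were Ankib1 (0.955), Phc2 (0.923) and Arhgap21 (0.912), and for Il10 Pdhx (0.955), Spats2 (0.941) and Dnajb4 (0.938).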

How the data were processed

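The authors deposited TPM per Ensembl gene in 3 tables, and values of each library were identical across them. The submitters' processing notes name FastQC, STAR, featureCounts and GRCm38, without versions; how TPM was computed and the annotation are not given in the sources used here. The depth is unknown. Symbols matched 34582 of 34866 identifiers. Coordinates are those of GENCODE M21 (GRCm38). No exonic base of a member overlapped another gene's exon, and none of its 75-base stretches occurred in another listed gene.

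Each comparison used limma 3.58.1 (R 4.3.3; lmFit, eBayes with trend, two-sided) on log2(TPM + 1) of 6 libraries, over genes with a mean of at least 1 TPM, with Benjamini-Hochberg adjustment over all genes tested and a threshold of 0.05. The scale understates changes of low genes. The script was tested on simulated data. P-values measure the spread between these libraries.

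Libraries of the same code deviated alike from their group means, with correlations of 0.375 to 0.631 across genes in every code pair. Since code Z stood apart, X and Y both deviate away from it, and no X library was correlated with a Y library. The check therefore cannot show that X and Y are paired. Title numbers gave the same pairs for chronic against acute hypoxia only. Alternatives were other pseudocounts, filters and scalings, blocks, all 9 samples, no code Z and leave-one-out. All 10 genes are named; of each other list, the highest and lowest fold change called with or without the code block; and the 3 most similar genes per ligand. Other list genes were named for their levels or roles after their values were seen. The members and lists were chosen with earlier results of these data known.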

Additional observations from a re-analysis of the deposited data

Results flagged for a closer look

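For 2 genes the acute and the chronic difference from standard oxygen had opposite signs in every code pair of the deposited TPM, and both share the standard oxygen libraries. The code pairs were not examined on rescaled values. For Igf1 the acute value was 0.05 and the chronic value -0.78, and the difference between the hypoxic groups was -0.84 on the log2(TPM + 1) scale (limma, adjusted p = 0.404 without a block and 0.00748 with the code block). The acute value did not pass (limma, adjusted p = 0.684 with the code block). Its TPM ratios to standard oxygen were 1.01, 1.03 and 1.08 for X, Y and Z, and after rescaling the value was 0.03. For Tgfb1 the values were -0.12 and 0.10, and the difference was 0.22 (limma, adjusted p = 0.362 without a block and 0.0973 with the code block), which missed the threshold. After rescaling the chronic value of Tgfb1 was -0.08, the same sign as the acute value.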

How the results depend on the processing

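No gene of the 7 passed in any comparison with a pseudocount of 0.1 or 5, without the filter on low values, with a mean of at least 5 TPM, without the trend, after rescaling or quantile normalization, or with all 9 samples in 1 fit. The replicate block by sample code gave 0, 2 and 3 genes for acute hypoxia against standard oxygen, chronic hypoxia against standard oxygen and chronic against acute hypoxia. That block gave 0, 3 and 2 with rescaling and 1, 3 and 3 with all 9 samples. Leaving out code Z gave 1, 4 and 4. The replicate block by title number gave 0, 0 and 3. Leaving out 1 library at a time gave 0 to 0, 0 to 1 and 0 to 0, where the 1 was Pdgfb without standard replicate 2. In chronic hypoxia against standard oxygen, Tgfb1 reversed to -0.0791 after rescaling, with or without the code block, and to -0.0138 after quantile normalization. In acute hypoxia against standard oxygen, leaving out 1 library moved Igf1 over -0.4313 to 0.5114, Il10 over -0.1631 to 0.8172, Osm over -0.0269 to 0.1522 and Pdgfb over -0.0211 to 0.6051. In chronic hypoxia against standard oxygen it moved Igf1 over -1.2666 to -0.315, Tnf over -0.7079 to -0.1529 and Osm over 0.1289 to 0.5398, and in chronic against acute hypoxia Igf1 over -1.2934 to -0.3683 and Osm over 0.0561 to 0.467. The causes were not tested.

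Over all genes the unblocked fit called 3, 298 and 77 in the same order. The code block called 78, 2039 and 1724, and the title block 0, 1 and 1724. Leaving out code Z called 319, 2300 and 1788. Fitting all 9 samples called 25, 770 and 417 unblocked, but 205, 2916 and 2464 once the code was blocked. Rescaling called 21, 232 and 83 unblocked, but 54, 1271 and 1061 once the code was blocked. The counts that follow are all from unblocked fits. Rescaling changed the split of higher and lower calls from 232 and 66 to 115 and 117 for chronic hypoxia against standard oxygen, and from 61 and 16 to 33 and 50 against acute hypoxia. Quantile normalization gave 23, 214 and 53, no filter 4, 120 and 7, and no trend 5, 166 and 25. Leaving out 1 library gave as few as 0, 1 and 1, and up to 33 and 522 against standard oxygen and, without chronic replicate 3, 230 higher and 78 lower calls for chronic against acute hypoxia. The depth is unknown, so the counting error of the lowest genes, such as Il6 and Il10, could not be measured.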

Other observations

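Ebi3, a subunit of IL-27 and IL-35, was as abundant as Tgfb1, at 295 ± 27.1 TPM for standard oxygen, 279 ± 22.0 TPM for acute and 333 ± 50.6 TPM for chronic hypoxia (SD, n = 3). The genes of its partner subunits stayed low. Il27 reached at most 1.01 TPM and Il12a at most 1.61 TPM in any library. Ebi3 and these partners were singled out after their values were seen.

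Igfbp4, an IGF-binding protein gene, was 12.7 and 12.2 TPM at standard oxygen in codes X and Y, 13.8 and 13.9 TPM after acute hypoxia, and 46.8 and 43.6 TPM after chronic hypoxia. In code Z it was 2.07, 1.37 and 1.40 TPM. The chronic libraries of X and Y were thus high and that of Z was not, and Igfbp4 was chosen for mention after its values were seen. S100a8 lay between 258 and 1906 TPM in all 9 libraries. S100a9, whose protein pairs with that of S100a8 in calprotectin, was listed at 0 in 8 of them and at 0.231 TPM in the remaining one.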
